A study of Mus musculus with 6 samples.

Results

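Interleukins and their receptors were examined in villi of mice that lack *Trpm7* in the intestinal epithelium. The group comprises 76 genes (80 probe sets) out of 19938 that the array names by a single symbol, chosen because their symbol begins with Il and a digit, and the probe set that was brightest on average over the 6 arrays stands for each gene. It holds 36 ligands, 35 receptor chains, 4 antagonists or soluble binding proteins and 1 antisense RNA, *Il1bos*. RNA came from villi of littermates at 5 days of age, 3 of them with floxed alleles alone (control, *Trpm7* fl/fl) and 3 that carried Cre as well (mutant, *Trpm7* fl/fl;*Villin1-Cre*, the *Trpm7*-intestine KO), hybridised to 1 Affymetrix whole-transcript array each. The floxed alleles are therefore common to all 6 samples, and the *Villin1* promoter drives Cre in epithelial cells of the mutant group only. Immune and stromal cells of the villus core keep a working *Trpm7* gene in this model. The labels give the background as C57BL/6, whereas the study's methods derive the floxed line from another strain.

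Interleukins are secreted signals between immune, epithelial and stromal cells. Members of the IL-1 family are released as alarm signals or matured by inflammasomes, and they signal through receptors that use the adaptor MyD88, held in check by a receptor antagonist and a decoy receptor. IL-17 and IL-22 act on gut epithelium and induce antimicrobial proteins, IL-10 restrains inflammation, and most cytokines of the IL-6, IL-12 and common gamma chain families signal through Janus kinases and STAT factors. In the intestine the ligands come largely from lymphocytes and myeloid cells, while the epithelium carries several of the receptors.

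The unit throughout is the log2 array signal, and a change is the mutant mean minus the control mean on that scale. *Trpm7* itself averaged 9.03 ± 0.08 on the control arrays against 7.90 ± 0.12 on the mutant ones (SD over 3 arrays), and thus fell by 1.13 (limma, adjusted p = 1.9e-04). Whether its probe set covers the deleted exon is not stated. Epithelial markers such as *Vil1* were bright in both groups, at 12.25 ± 0.03 and 12.49 ± 0.15. The labels do not give the sex of the samples, and control replicates 2 and 3 held both *Xist* (9.82 and 9.66) and the Y-linked *Eif2s3y* (7.71 and 7.84), so whether each array is 1 pup is not known. Mutant replicates 2 and 3 had low *Xist* (4.76 and 5.26) and high *Eif2s3y* (8.38 and 8.50), while control replicate 1 and mutant replicate 1 had high *Xist* (10.48 and 10.18) and low *Eif2s3y* (3.63 and 3.56). The groups thus differ in *Xist*, which was high in all 3 control and 1 of 3 mutant arrays, and the part of sex in the results was not tested. The p-values measure the spread between these samples. Precision is set by how few arrays there are: relabelling them in an exact permutation test gives a two-sided p of 0.1 at best.

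In mutant villi, 7 of the 76 genes rose, 3 fell and 66 did not pass the test, whose threshold was an adjusted p of 0.05. Without control replicate 2, 4 rose and 2 fell. The 4 that changed at least 2-fold, *Il1b*, *Il33*, *Il1r2* and *Il1rn*, all belong to the IL-1 family and all rose. Smaller rises were those of *Il17rd* (0.50), *Il22ra1* (0.42) and *Il6ra* (0.41), while *Il7* and *Il10rb* each fell by 0.55 and *Il15ra* fell by 0.32. The share of interleukin genes that passed, 13.2%, lay under that of all genes, 19.5% (16.9% of all probe sets). In the upward direction it was 9.21% against 9.39% of genes (8.04% of probe sets), and in the downward direction 3.95% against 10.1% of genes (8.82% of probe sets). At least 2-fold and higher were 5.26% of them, against 1.7% of genes (1.35% of probe sets), and in either direction a 2-fold change was found in 3.08% of genes (2.53% of probe sets). The median change of the 76 genes was 0.06, and that of all genes 0.01. Calls lay mostly among the brighter members. At or over the median signal of all probe sets were 23 interleukin genes, of which 7 rose and 2 fell. Under it were 53, of which none rose and 1 fell. No such split is given here for all genes, so the lower share of 13.2% does not compare genes of like signal.

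**Figure D1:**
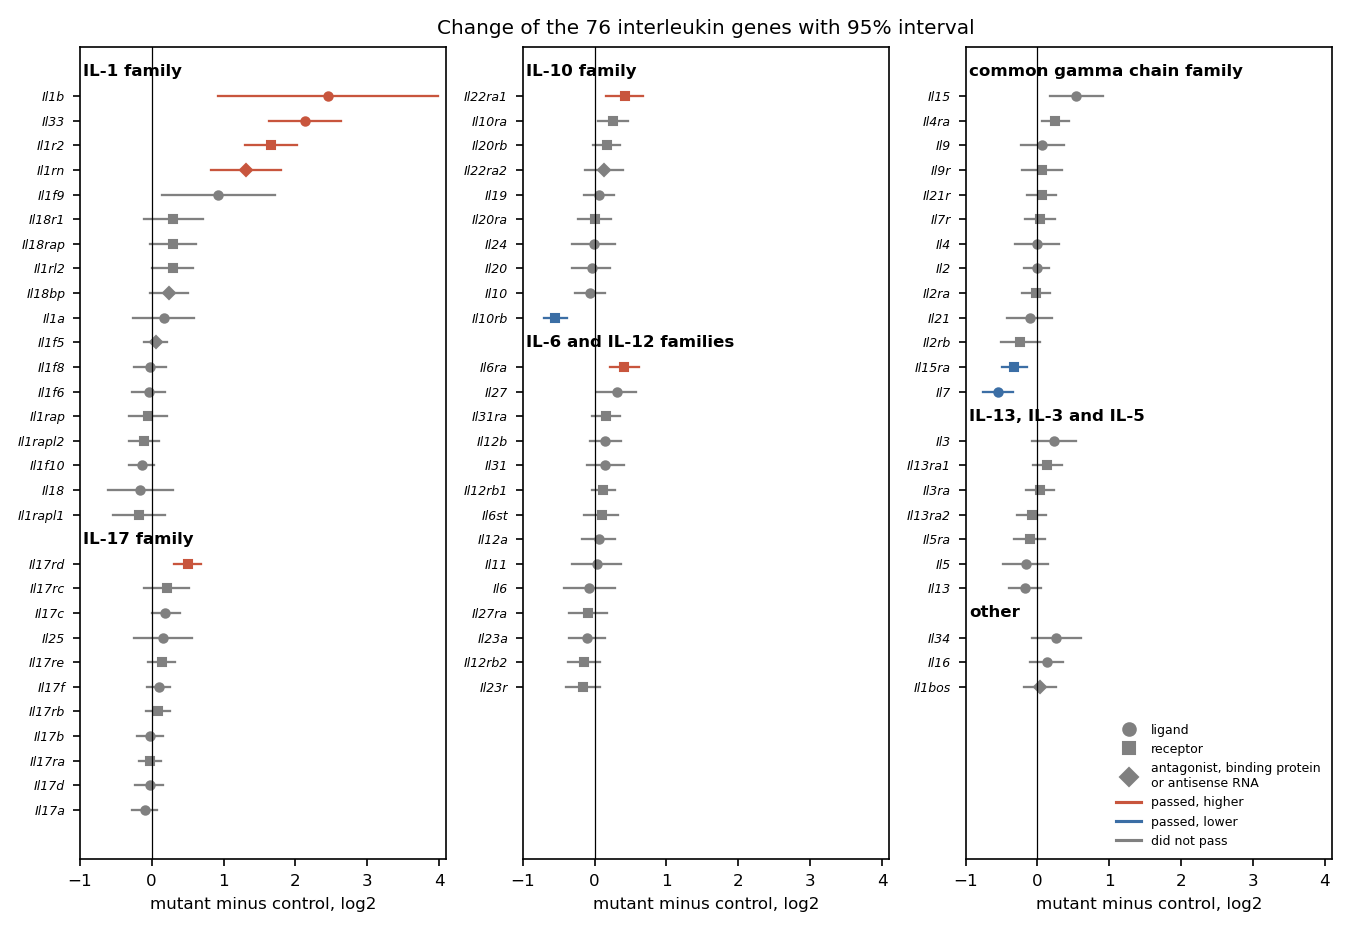
Change of each of the 76 interleukin genes in mutant against control villi (log2, horizontal axis) with its 95% interval from limma, grouped by cytokine family. The 4 changes above 1 lie in the IL-1 family, and most other intervals include 0.

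*Il1b* encodes interleukin 1 beta, the main inflammatory cytokine of activated myeloid cells. The 3 control arrays gave 5.50, 5.39 and 5.31, and the mutant arrays 7.06, 6.80 and 9.69 (probe set 10487597, chromosome 2). The groups did not overlap, and mutant replicate 3 stood far above the other 2 mutant arrays. The rise was 2.45 (SE 0.66, adjusted p = 0.040 from limma), and without mutant replicate 3 it was 1.53 (adjusted p = 3.5e-04 from limma). Leaving out any 1 control replicate ended the call (adjusted p from 0.091 to 0.108 from limma). So did eBayes with trend and robust estimation (adjusted p = 0.152), an offset of 32 on the linear scale (0.107) and the mean of control replicates 2 and 3 as 1 sample (0.102, all from limma). *Il1bos*, the antisense RNA at this locus, was at 3.56, 3.52 and 3.49 in control villi and changed by 0.04 (adjusted p = 0.845 from limma).

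*Il33* encodes an alarm cytokine kept in the nucleus of epithelial, endothelial and stromal cells. It was at 5.83, 6.00 and 5.95 in control villi and at 8.09, 8.54 and 7.55 in mutant villi (probe set 10462442, chromosome 19). Here mutant replicate 2 was highest and replicate 3 lowest, the reverse of *Il1b*, and all 3 lay above every control array. The rise of 2.13, or 4.39-fold, had an SE of 0.22 (adjusted p = 6.1e-04 from limma).

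The decoy receptor and the receptor antagonist of IL-1 both rose. *Il1r2*, the decoy receptor that binds IL-1 without signaling, was at 5.85, 6.22 and 6.11 in control villi and 7.61, 7.50 and 8.05 in mutant villi (probe set 10345752, chromosome 1). Its rise was 1.66 (SE 0.16, adjusted p = 4.5e-04 from limma), the smallest adjusted p among the 76 genes. *Il1rn*, which encodes the receptor antagonist, was at 6.11, 5.85 and 5.99 in control villi and 7.23, 6.85 and 7.79 in mutant villi (probe set 10469816, chromosome 2). It rose by 1.31 (SE 0.21, adjusted p = 0.0049 from limma). In both genes mutant replicate 3 was highest, and neither group overlapped the other. The calls of *Il33*, *Il1r2* and *Il1rn* held in each fit that left out 1 replicate and under every other setting run.

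The control means of these 4 genes, from 5.40 to 6.06, lie under the median of all probe sets, 6.28. Whether such signals lie above background was not tested, so the folds are ratios of signals rather than of transcript amounts.

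**Figure D2:**
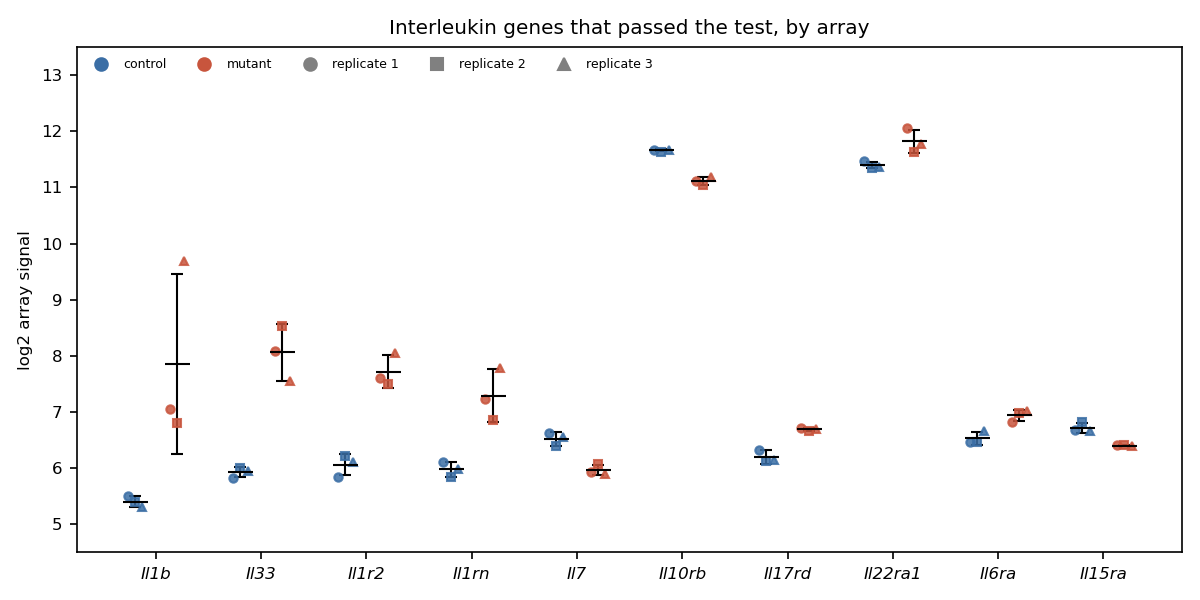
Log2 array signal of the 10 interleukin genes that passed the test, 1 point per array, with the mean and SD of each group. The groups do not overlap in any of the 10, which the test had picked, nor in 37.5% of all genes. The wide spread of *Il1b* in mutant villi comes from replicate 3 at 9.69.

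The promoters of the 4 genes that rose at least 2-fold are shown because these genes changed most. The sequences are from RefSeq (GRCm38.p6), run from 250 bases before to 50 bases after a transcription start and read 5′ to 3′ along the gene's strand. For *Il33*, with 2 listed starts, and *Il1rn*, with 3, the start with the most motif matches is given. Capitals mark matches to 1 of 6 motifs: AP-1 (TGANTCA), STAT (TTCNNNGAA), C/EBP (TTGCNNAA) and the antioxidant response element (TGACNNNGC), each on both strands, with overlaps allowed, and the TATA box (TATAAA) on the gene's strand. The remaining motif, that of NF-kappaB, was searched on both strands.
Il1b promoter, chr2:129371090-129371389, minus strand: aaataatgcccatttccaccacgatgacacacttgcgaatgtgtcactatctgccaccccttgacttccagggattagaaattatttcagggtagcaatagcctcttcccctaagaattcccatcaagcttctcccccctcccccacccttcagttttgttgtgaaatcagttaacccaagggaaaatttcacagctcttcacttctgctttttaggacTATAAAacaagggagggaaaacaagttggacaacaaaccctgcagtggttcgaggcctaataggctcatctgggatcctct
Il33 promoter, chr19:29945540-29945839, plus strand: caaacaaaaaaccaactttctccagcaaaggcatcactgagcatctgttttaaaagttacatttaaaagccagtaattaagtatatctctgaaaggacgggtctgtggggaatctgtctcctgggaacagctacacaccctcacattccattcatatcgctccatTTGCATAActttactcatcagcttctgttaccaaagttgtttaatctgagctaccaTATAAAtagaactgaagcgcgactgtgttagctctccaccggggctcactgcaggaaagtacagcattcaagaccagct
Il1r2 promoter, chr1:40085843-40086142, plus strand: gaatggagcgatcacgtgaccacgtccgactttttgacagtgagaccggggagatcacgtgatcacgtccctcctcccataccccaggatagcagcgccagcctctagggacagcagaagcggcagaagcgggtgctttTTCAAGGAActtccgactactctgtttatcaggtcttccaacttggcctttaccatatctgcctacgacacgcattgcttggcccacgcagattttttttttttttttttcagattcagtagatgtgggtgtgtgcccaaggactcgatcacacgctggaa
Il1rn promoter, chr2:24336610-24336909, plus strand: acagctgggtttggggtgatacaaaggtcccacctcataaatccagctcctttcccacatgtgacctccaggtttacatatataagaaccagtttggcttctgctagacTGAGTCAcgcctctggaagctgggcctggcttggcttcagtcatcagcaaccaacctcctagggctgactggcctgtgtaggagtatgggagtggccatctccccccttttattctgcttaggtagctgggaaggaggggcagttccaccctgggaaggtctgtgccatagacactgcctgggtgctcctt
The *Il1b* sequence held a TATA box whose first base lies 31 bases before the start, and the *Il33* sequence one at 29 bases and a C/EBP match at 85 bases. The *Il1r2* sequence held a STAT match at 111 bases and the *Il1rn* sequence an AP-1 match at 141 bases. No motif was found in all 4. NF-kappaB and the antioxidant response element, with matches in 0.411% and 12.4% of promoters, had none in these windows. An AP-1 match occurs in 7.81% of the 32851 promoters in the table and a STAT match in 8.3%. The TATA box occurs in 8.32% and C/EBP in 10.8%. Among the 71 promoters of interleukin genes, AP-1 matched in 19.7%, STAT in 15.5%, the TATA box in 14.1% and C/EBP in 18.3%. NF-kappaB matched in 2.82% of them and the antioxidant response element in 14.1%. The starts shown for *Il33* and *Il1rn* were picked by their matches, which these shares do not allow for. The table holds promoters of 59 of the 76 interleukin genes, and 8 of the 10 that passed the test, without *Il7* and *Il10rb*. A match describes letters in a window, not a bound site.

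The remaining 14 members of the IL-1 family did not pass the test. *Il1f9*, also known as *Il36g* and chosen here after its values were seen, came closest in size. It was at 4.02, 4.06 and 4.25 in control villi and 4.68, 4.47 and 5.96 in mutant villi, all dim, with a difference of 0.93 (adjusted p = 0.112 from limma). Again the groups did not overlap and mutant replicate 3 was far above the others. Without that replicate the difference was 0.47, and it passed the test (adjusted p = 0.035 from limma). *Il1a* differed by 0.17 and overlapped between the groups, with control replicate 1 the brightest array at 8.42. *Il18*, which epithelial cells make constitutively, was at 8.95, 8.80 and 8.85 in control villi and 8.98, 8.20 and 8.94 in mutant villi (adjusted p = 0.643 from limma). The antagonists *Il1f5* (0.06) and *Il18bp* (0.24) did not pass, and neither did the signaling partner *Il1rap* (−0.05) or the receptors *Il1rl2*, *Il18r1* and *Il18rap* (0.29 to 0.30).
No other gene of the group that lies beside these genes passed the test. *Il1r1* and *Il1rl1* are not in the group and were not examined. In RefSeq, *Il1rn* lies in a run of 6 IL-1 genes within 500 kb of each other, and the 4 others apart from *Il1f9* changed by −0.14 to 0.06. *Il1b* lies beside *Il1a* and *Il1bos*, and *Il1r2* beside *Il1rl2*, *Il18r1* and *Il18rap*, none of which passed.

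Several neutrophil transcripts rose in the same arrays. The marker counts below stand beside shares of 9.39% of all genes that rose and 10.1% that fell. Of 9 neutrophil markers, 5 rose (*S100a8*, *S100a9*, *Csf3r*, *Cxcr2* and *Mmp8*), none fell and 4 did not pass. Their mean log2 signal was 5.26 to 5.38 in control villi and 6.46 to 7.59 in mutant villi. Mutant replicate 3 was highest, as it was for *Il1b*, *Il1r2*, *Il1rn* and *Il1f9*. *Cxcr2*, a chemokine receptor of neutrophils, was at 4.22, 4.75 and 4.40 in control villi and 5.49, 5.66 and 7.33 in mutant villi (adjusted p = 0.033 from limma). *S100a9* rose by 3.46, whereas *Ly6g* was highest in mutant replicate 1 (6.70, 4.45 and 4.77 in mutant villi) and *Camp* differed by 0.10 without passing. *Mmp9*, the brightest of the 9, was the only marker with a lower mutant mean (−0.29, adjusted p = 0.453 from limma). *S100a8* and *S100a9* are also made by stressed epithelium. Of 7 macrophage and monocyte markers, *Itgam* rose by 0.83, *Adgre1* fell by 0.54 and 5 did not pass, and their mean was 7.35 to 7.42 in control and 7.50 to 8.11 in mutant villi. Differences of these 7 were upward in 4 and downward in 3. *Cd14*, which did not pass, was at 6.03, 6.12 and 6.33 in control villi and 7.25, 7.02 and 9.41 in mutant villi (adjusted p = 0.070 from limma). None of 4 general leukocyte markers passed, with means of 6.94 to 7.18 and 7.00 to 7.65. In both of these lists too, mutant replicate 3 had the highest mean (8.11 and 7.65), so this order was not particular to neutrophil markers.
Of 6 fibroblast markers, *Dcn* (1.03) and *Pdgfra* (0.56) rose and 4 did not pass, with a mean of 7.40 to 7.75 in control villi and 7.81 to 8.19 in mutant villi. This mean was highest in mutant replicate 2, as was *Il33*, but lowest in mutant replicate 1 (7.81), whereas *Il33* was lowest in mutant replicate 3. Of 5 endothelial markers, *Tek* fell by 0.81, *Emcn* fell by 0.53 and 3 did not pass, with means of 8.11 to 8.25 and 7.73 to 8.04. Of 9 epithelial markers 5 rose, 1 fell and 3 did not pass, with means of 12.06 to 12.12 and 12.38 to 12.45. The part of these cells in the rises of the interleukin genes was not tested. In such bulk samples, more cells of a type and more RNA per cell cannot be told apart.

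**Figure D3:**
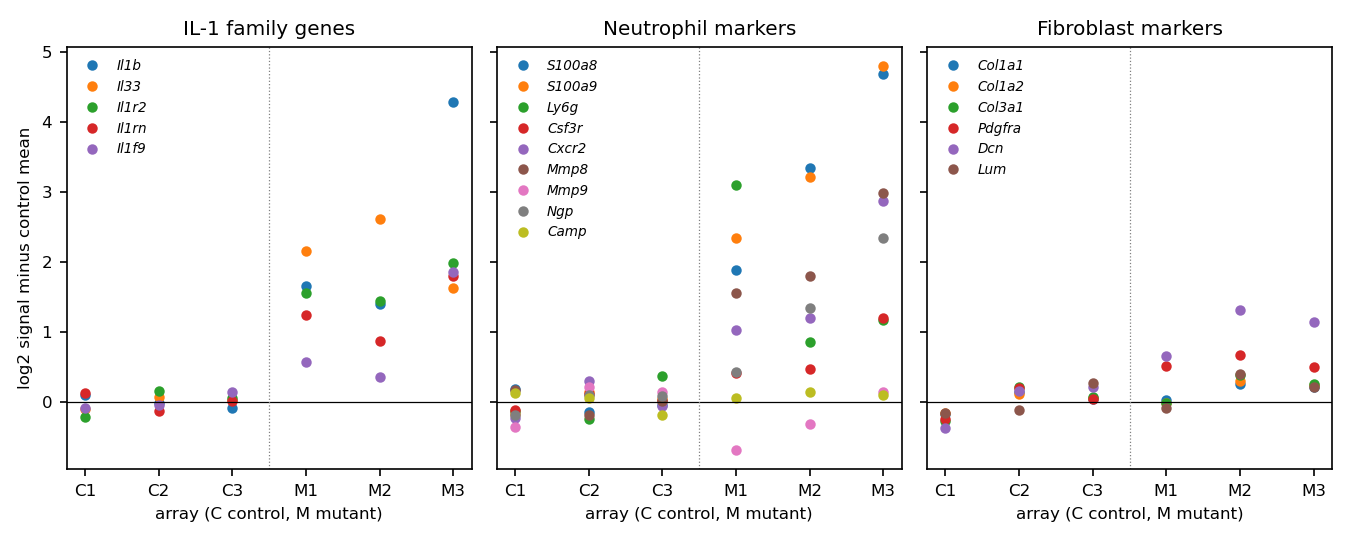
Log2 signal minus the mean of the 3 control arrays (vertical axis) in each array, for 5 IL-1 family genes, 9 neutrophil markers and 6 fibroblast markers. Points of *Il1b* and of most neutrophil markers are highest in mutant replicate 3, and those of *Il33* and *Dcn* in mutant replicate 2.

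Genes that mature and transmit IL-1 family signals were taken from lists of the pathway. Of 12 genes of the inflammasome and of IL-1 release, 4 fell, none rose and 8 did not pass, with a median change of −0.12. Over all genes, 10.1% fell and 9.39% rose. *Pycard*, the adaptor that joins inflammasome sensors to caspase 1, fell by 1.02, from 8.45, 9.12 and 9.11 to 7.87, 7.63 and 8.12 (adjusted p = 0.011 from limma). *Casp1*, the protease that cleaves pro-IL-1 beta and pro-IL-18, fell by 0.45, with 10.65, 10.65 and 10.66 in control villi and 10.41, 10.14 and 10.05 in mutant villi (adjusted p = 0.019 from limma). *Gsdmc2* and *Gsdmc4* of the gasdermin C cluster fell by 0.80 and 0.84 at dim signals, and *Gsdmd*, whose pore releases IL-1 beta, differed by 0.11 (adjusted p = 0.497 from limma). Of 13 adaptors and kinases behind IL-1 and IL-17 receptors, *Nfkbiz* rose by 0.54 (adjusted p = 0.011 from limma) and 12 did not pass, *Myd88*, *Traf6* and *Traf3ip2* among them. *Nfkbiz* is a nuclear cofactor of NF-kappaB that IL-1 and IL-17 induce.

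The receptor for IL-22 pairs 2 chains, and these moved in opposite directions. *Il22ra1*, the chain specific to epithelium, was at 11.47, 11.35 and 11.37 in control villi and 12.05, 11.63 and 11.77 in mutant villi (probe set 10509063, chromosome 4), a rise of 0.42 (SE 0.11, adjusted p = 0.039 from limma). The rise passed in only 1 of the 6 fits that left out a replicate, that without mutant replicate 2 (adjusted p = 0.030 to 0.115 over the 6, from limma). It also missed the threshold after quantile normalization and after median centring. A dimmer second probe set of the gene differed by 0.33 (adjusted p = 0.085 from limma). *Il10rb*, the chain shared by the receptors for IL-10, IL-22 and type III interferons, was at 11.67, 11.63 and 11.67 in control villi and 11.11, 11.04 and 11.18 in mutant villi (probe set 10436841, chromosome 16). It fell by 0.55 (SE 0.07, adjusted p = 0.002 from limma), and the call held in every fit.
*Il10ra*, the ligand-binding chain for IL-10 on leukocytes, differed by 0.26 (adjusted p = 0.098 from limma), and 3 probe sets of *Il20rb* gave 0.16 to 0.26 without passing. None of the 4 ligands of the family with a probe set of their own passed (*Il10*, *Il19*, *Il20* and *Il24*, −0.06 to 0.06), and all 4 were under the median signal. *Il10*, the restraining cytokine itself, was at 3.38, 3.54 and 3.38 in control villi and 3.24, 3.38 and 3.50 in mutant villi. *Il22ra2*, the soluble IL-22 binding protein, was dim as well and differed by 0.13.
Of 18 epithelial genes known to respond to IL-22 or IL-17, 6 rose (*Lcn2*, *S100a9*, *S100a8*, *Reg3g*, *Reg3b* and *Zc3h12a*), 2 fell (*Fut2* and *Muc1*) and 10 did not pass. *S100a8* and *S100a9* are the same probe sets as in the neutrophil list, whose mean was higher in all 3 mutant arrays, and their part in this count was not tested. Over all genes, 9.39% rose and 10.1% fell. *Lcn2*, an iron-scavenging antimicrobial protein that neutrophils make too, rose by 3.68, from 5.80, 5.85 and 5.66 to 8.75, 9.10 and 10.51. *Reg3g*, an antimicrobial lectin, rose by 2.30. *Fut2*, a fucosyltransferase of the epithelial surface, was at 9.22, 8.71 and 8.81 in control villi and 8.20, 6.61 and 7.03 in mutant villi, a fall of 1.63 on average (adjusted p = 0.019 from limma). *Zc3h12a*, an RNase that limits cytokine transcripts, rose by 0.55 (adjusted p = 0.015 from limma).

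Of 11 genes of the IL-17 family, *Il17rd* rose and 10 did not pass. *Il17rd*, a receptor-like protein that also restrains fibroblast growth factor signaling, was at 6.33, 6.12 and 6.14 in control villi and 6.71, 6.67 and 6.70 in mutant villi (probe set 10413398, chromosome 14). The 3 mutant values lay within 0.04 of each other and above every control value, and the change of 0.50 had an SE of 0.08 (adjusted p = 0.0052 from limma). A second, dim probe set of *Il17rd* gave no such difference (−0.04, adjusted p = 0.775 from limma). The signaling chains *Il17ra* (−0.02) and *Il17rc* (0.21) and the epithelial receptor *Il17re* (0.14) did not pass. All 6 ligands were under the median signal, and the largest difference among them was that of *Il17c*, 0.19 (adjusted p = 0.176 from limma). *Il25*, the product of tuft cells, differed by 0.16. Of 7 tuft cell markers, *Il25* itself among them, only *Alox5ap*, which leukocytes express too, rose (1.40). *Dclk1*, *Trpm5* and *Pou2f3* did not pass.

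Of 14 genes of the IL-6 and IL-12 families, *Il6ra* rose and 13 did not pass. *Il6ra*, the ligand-binding chain for IL-6, was at 6.47, 6.46 and 6.66 in control villi and 6.83, 6.98 and 7.02 in mutant villi (probe set 10499655, chromosome 3). Its rise of 0.41 had an SE of 0.09 (adjusted p = 0.017 from limma), and it was lost in 4 of the 6 fits that left out a replicate (adjusted p up to 0.067 from limma). The signaling chain *Il6st* differed by 0.10 (adjusted p = 0.584 from limma). *Il6*, an inflammatory cytokine that also circulates in blood, was dim, at 3.02, 3.21 and 2.93 in control villi and 2.65, 3.25 and 3.03 in mutant villi (adjusted p = 0.790 from limma). The groups overlapped, and at this signal a change in transcript may not be detectable. *Il27* had the largest difference among the ligands, 0.31 (adjusted p = 0.115 from limma), and passed without control replicate 1. *Il23a*, *Il12a*, *Il12b*, *Il11* and *Il31* differed by −0.10 to 0.15.

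Genes of the common gamma chain family showed 2 falls and no rise among 13, where 10.1% of all genes fell and 9.39% rose. *Il2rg* is not in the group and was not examined. *Il7*, a survival factor for lymphocytes that epithelial and stromal cells make, was at 6.63, 6.39 and 6.55 in control villi and 5.94, 6.08 and 5.90 in mutant villi (probe set 10497188, chromosome 3). It fell by 0.55 (SE 0.09, adjusted p = 0.0054 from limma) without overlap, and the call held in every fit that tested it. *Il15ra*, which presents IL-15 to lymphocytes, was at 6.68, 6.83 and 6.66 in control villi and 6.41, 6.41 and 6.39 in mutant villi (probe set 10469289, chromosome 2). Its fall of 0.32 (SE 0.08, adjusted p = 0.024 from limma) did not pass in 4 of the 6 fits without 1 replicate (adjusted p up to 0.087 from limma). Its ligand *Il15*, chosen after its values were seen, was at 7.38, 7.50 and 7.57 on control arrays and at 7.72, 8.40 and 7.96 on mutant arrays, without overlap. That difference of 0.54 just missed the threshold (adjusted p = 0.055 from limma). It passed under 5 of the 9 other settings run on all samples or probe sets and without mutant replicate 1 (range of adjusted p from 0.022 to 0.140 over all fits, from limma).
*Il4ra*, the shared chain for IL-4 and IL-13, was at 9.88, 9.93 and 9.91 in control villi and 10.19, 10.04 and 10.25 in mutant villi and differed by 0.25 (adjusted p = 0.068 from limma). Receptor chains that mark lymphocytes, *Il2ra*, *Il2rb*, *Il7r*, *Il9r* and *Il21r*, were all under the median signal, and none passed. None of 7 T cell markers and none of 5 markers of innate lymphoid and NK cells passed, with mean signals of 5.62 to 5.74 and 3.99 to 4.12 in control villi and of 5.57 to 5.64 and 3.94 to 4.14 in mutant villi. Of 8 mast cell and basophil markers *Mcpt1*, *Mcpt2* and *Kit* fell, at signals under the median. Of the 4 B cell markers only *Cd74*, which antigen-presenting cells and epithelium express too, fell (by 0.54), and of 5 dendritic cell markers none passed.

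None of the 7 genes of IL-13, IL-3, IL-5 and their receptors passed. *Il13ra1*, which pairs with *Il4ra* to bind IL-13, differed by 0.14 (adjusted p = 0.350 from limma), and *Il3* had the largest difference of the ligands, 0.23, at a signal of 3.39 to 3.97. Of 11 genes known to respond to IL-4 or IL-13, 3 fell, none rose and 8 did not pass, where 10.1% of all genes fell and 9.39% rose. The median change of the 11 was 0.13, with 7 differences upward and 4 downward. *Chil3* had the largest upward difference, 1.17 (adjusted p = 0.113 from limma). *Clca1*, a product of goblet cells, fell by 3.46, *Ccl24*, a chemokine for eosinophils, fell by 1.48, and *Spdef*, a goblet cell transcription factor, fell by 0.62. *Il34*, a second ligand of the macrophage receptor *Csf1r*, differed by 0.26 and *Il16* by 0.13, and neither passed. The difference of *Il34* was 0.43 without mutant replicate 3, where it passed (adjusted p = 0.046 from limma), and 0.12 without mutant replicate 1.

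Among transducers shared by most interleukins, changes were small and went both ways. *Jak2* rose by 0.31 (9.79, 9.83 and 9.80 against 10.12, 10.07 and 10.15, adjusted p = 0.019 from limma), while *Jak1* and *Tyk2* did not pass. Of 6 STAT genes *Stat5a* fell by 0.32 (adjusted p = 0.041 from limma), and *Stat3*, which IL-6, IL-10 and IL-22 activate, differed by −0.18 (adjusted p = 0.131 from limma). Of 8 inhibitors of cytokine signaling, *Socs3*, a target of STAT3, rose by 0.46 (7.78, 7.47 and 7.44 against 8.06, 7.94 and 8.07, adjusted p = 0.022 from limma). *Socs2*, a target of STAT5, fell by 0.57 (adjusted p = 0.0098 from limma) and *Socs7* fell by 0.43 (adjusted p = 0.013 from limma).
Of 21 cytokines and receptors of the same type with other names, 5 rose, 1 fell and 15 did not pass. Over all genes, 9.39% rose and 10.1% fell. *Csf2rb*, the shared beta chain for IL-3, IL-5 and GM-CSF, was at 6.24, 6.26 and 6.04 in control villi and 7.04, 6.82 and 7.14 in mutant villi, a rise of 0.82 (adjusted p = 0.0018 from limma). *Csf2rb2* (0.74), *Csf3r* (0.69), *Ifngr1* (0.58) and *Clcf1* (0.53) rose as well, and *Cntfr* fell by 0.86. *Csf3r* and *Csf1r* are also counted in the neutrophil and the macrophage and monocyte lists, respectively. *Csf2rb* and *Csf2rb2* are close copies whose probes may share transcripts.

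**Figure D4:**
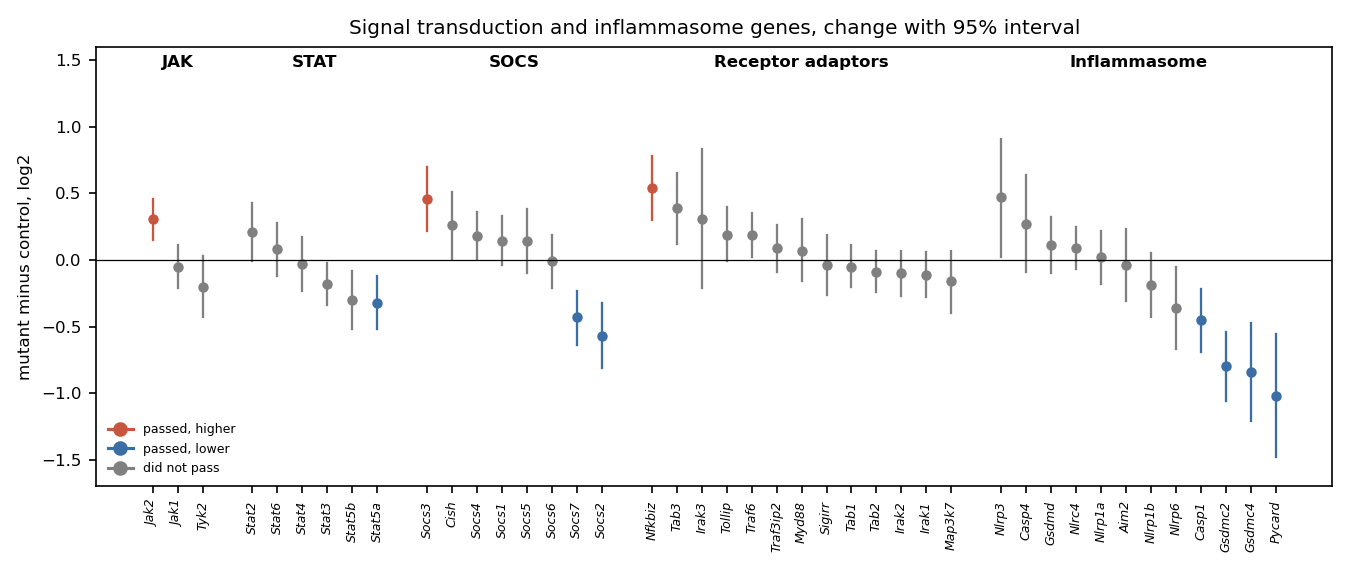
Change (log2, vertical axis) with its 95% interval from limma for genes of JAK, STAT and SOCS proteins, receptor adaptors and the inflammasome, in mutant against control villi. *Jak2*, *Socs3* and *Nfkbiz* are the 3 that rose, and the 7 that fell are *Stat5a*, *Socs2*, *Socs7*, *Casp1*, *Pycard*, *Gsdmc2* and *Gsdmc4*.

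Most interleukin genes gave little signal in these villi. The mean of 53 of the 76 lay under the median of all probe sets, among them 29 of 36 ligands and 21 of 35 receptor chains. The groups did not overlap in 24 of the 76 genes, or 31.6%, against 37.5% of all genes (34.5% of probe sets). For a dim gene without a call, the 95% interval bounds the difference in array signal and not that in transcript, for example −0.43 to 0.28 for *Il6*, −0.27 to 0.08 for *Il17a* and −0.39 to 0.05 for *Il13*.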

How the data were processed

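Villi were isolated from the intestine of littermates at 5 days of age, and biotin-labelled cDNA of their total RNA was hybridised to Affymetrix whole-transcript arrays. The deposited table gives a log2 signal for each of 30177 probe sets on every array. What software, background correction and normalization the authors used is not given in these sources. The medians of the 6 arrays lay between 6.24 and 6.30. Probe sets were named from the platform's annotation (21789 with 1 symbol, 1621 with several, 6767 unlisted), and 21698 symbols were checked through Entrez IDs against a RefSeq table. Probe sets with several symbols, 3 of them for interleukins, were tested but stand for no gene.

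The comparison of mutant with control used limma 3.58.1 under R 4.3.3 (lmFit and eBayes, 3.92 prior degrees of freedom). It took the deposited log2 values unaltered and adjusted p by Benjamini-Hochberg over every probe set, and a gene passed at an adjusted p of 0.05 or less. The fit was also run on simulated arrays with known changes and independent noise. That run does not show whether the present samples are independent or whether the calls made here hold. Members, gene lists and tests were chosen with earlier results of these data known. Named members are those that passed, the member with the largest change where a family's ligands or receptors held none, and *Il6*. All others were chosen after their values were seen. Lists are described by counts, and some also by the median change or by the mean signal of each group. Every count of a family or list stands beside 9.39% of all genes that rose and 10.1% that fell. Alternatives were array weights, a mean-variance trend with robust eBayes, a block for replicate number, quantile normalization, median centring, an offset of 32 on the linear scale, no dim probe sets, single-symbol probe sets alone, the probe set with the lowest mean, the mean of control replicates 2 and 3 as 1 sample, and each replicate left out. Tables and figures were made with pandas 2.3.3 and matplotlib 3.10.9 in Python 3.11.15. No sample was left out.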

Additional observations from a re-analysis of the deposited data

How the results depend on the processing

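*Il33*, *Il1r2*, *Il1rn*, *Il10rb* and *Il17rd* kept their direction and their call in all 15 other fits of their probe set, and *Il7* in the 14 that tested it. The other 4 calls, those of *Il1b*, *Il22ra1*, *Il6ra* and *Il15ra*, were lost in some fits that left out 1 replicate. With all replicates, *Il1b* was also lost with trend and robust estimation and with the offset, and *Il22ra1* with quantile normalization and median centring. Control replicates 2 and 3 were the closest pair within a group, with a correlation of 0.9969 and 1055 identical values. Other pairs within a group shared 659 to 743 values. Whether these 2 controls are independent samples is not known. Averaging control replicates 2 and 3 ended the calls of *Il1b*, *Il22ra1* (adjusted p = 0.107 from limma) and *Il15ra* (0.050 after rounding). Calls gained without 1 replicate were those of *Il27* (without control 1), *Il10ra* and *Il15* (without mutant 1), and *Il18bp*, *Il1f9* and *Il34* (without mutant 3). The number of interleukin genes that rose was 4 to 8 without 1 replicate, with the 4 reached without control replicate 2, and the number that fell was 2 to 3. With control replicates 2 and 3 averaged, 5 rose and 2 fell.
Replicate numbers are shared by the groups but are not stated to pair the samples, and the main fit took none as paired. Deviations of same-numbered arrays correlated at 0.17, 0.04 and 0.12, and those of other pairs at −0.16 to 0.09. The deviations are from means of 3 arrays, so these correlations depend on each other and cannot decide pairing. *Eif2s3y* was low in replicate 1 and high in replicates 2 and 3 of both groups. Control replicate 2 correlated better with mutant replicate 3 (0.09) than with its own number. With the replicate as a block, 8 interleukin genes rose and 3 fell.
With control replicates 2 and 3 averaged, genes that rose numbered 9 rather than 14 over the pathway lists and 8 rather than 14 over the cell marker lists. Without 1 replicate these numbers ran from 7 to 14 and from 7 to 13. Without dim probe sets, 5 rather than 9 marker genes fell, since fewer were tested. Signs turned for *Il17rd* with its dimmer probe set (−0.04), and without 1 replicate for *Il10* (−0.12 to 0.01), *Il6* (−0.21 to 0.09) and *Il18* (−0.30 to 0.09), none of which was called; the causes were not tested. The depth of an array is its signal over background, which the deposited values do not show, and this limits what can be said of the dim ligands.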

Other observations

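The probe sets that interleukin genes share with a near copy stood outside the comparison by gene. Both probe sets for *Il22* and *Iltifb* were dim, with 4.17, 4.47 and 4.23 in control villi and 4.41, 4.27 and 4.35 in mutant villi for the brighter one, and each differed by 0.05 (adjusted p = 0.768 and 0.769 from limma). The probe set shared by *Il4i1* and *Il4i1b*, an amino acid oxidase rather than an interleukin, differed by −0.02 (adjusted p = 0.902 from limma). Which of the paired genes these probe sets measure cannot be told.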
